A study of Mus musculus with 12 samples.

Results

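The genes described here are 28 mouse genes of sterol and fatty acid synthesis, chosen by name and matched by symbol to 28 of the 43629 gene identifiers in the count files. Of these, 7 act from the start of the mevalonate pathway to squalene, 10 from squalene to cholesterol, 4 control the pathway or carry sterol, and 7 make or modify fatty acids. All 28 were among the 15059 genes that passed a filter on low counts, although 9 of them had 0 to 3 reads over all 3 libraries of group GHMT and so passed through other groups. RNA was sequenced from 12 libraries, 3 in each of 4 groups, all of strain C57BL/6. Group E was embryonic fibroblasts kept for 3 weeks after they received an empty vector. Group GHMT was fibroblasts given the factors Gata4, Hand2, Mef2c and Tbx5 for the same time, and group AGHMT was labelled as given Akt as well. Both were sorted on αMHC-GFP, a reporter driven by the promoter of a cardiac myosin gene, so they hold only the reporter-positive cells, while E was not labelled as sorted. Group CM was ventricular cardiomyocytes isolated from adult mice, with no vector. The labels do not say whether libraries of a group came from separate cultures or animals, so p-values measure only the spread among these libraries.

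Cholesterol and fatty acids are both built from acetyl-CoA. The mevalonate pathway joins acetyl units into isoprenoids and then squalene, which is closed into rings and trimmed to cholesterol, while acetyl-CoA carboxylase and fatty acid synthase build palmitate, which desaturases and elongases modify. The membrane-bound transcription factors SREBP-1 and SREBP-2, from Srebf1 and Srebf2, are held back by Insig proteins when sterol is plentiful and switch on many of these genes when it is low, often together with NF-Y, which binds CCAAT boxes, and Sp1. The adult heart takes up most of its fatty acids from the blood and burns them as fuel.

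Promoter sequences are shown because the members are known for shared promoter elements. RefSeq sequence (GRCm38.p6, the assembly of mm10) gave the 250 bases upstream of a start for 22 of the 28 members, in 27 windows, since some genes have several starts. A gene was counted where any of its windows held a motif on either strand. By gene, the letters CCAAT stood in 19 of 22 members (86.4%), against 40.2% of 10712 tested genes, and by window in 20 of 27. The letters GGGCGG, an Sp1-type box, stood in 18 of 22 members (81.8%), against 62.5%. The letters TCACNCCAC, like a sterol regulatory element, stood in 1 of 22 members (4.55%), Hmgcs1, against 1.23%. No match says only that these letters are not in the window. The lines below give the windows of Hmgcs1 (chr13:119690101-119690350, plus strand), the member with all 3 motifs, and of the 3 other members with a window that showed the largest passing rise in GHMT over E. These are Hsd17b7 (chr1:169969206-169969455, minus strand), Idi1 (chr13:8885356-8885605, plus strand) and Acss2 (chr2:155517793-155518042, plus strand), and they were chosen after their values were seen. Each runs 5′ to 3′, and capitals mark the sterol regulatory element-like letters and CCAAT, which reads ATTGG where the match is on the other strand.
Hmgcs1: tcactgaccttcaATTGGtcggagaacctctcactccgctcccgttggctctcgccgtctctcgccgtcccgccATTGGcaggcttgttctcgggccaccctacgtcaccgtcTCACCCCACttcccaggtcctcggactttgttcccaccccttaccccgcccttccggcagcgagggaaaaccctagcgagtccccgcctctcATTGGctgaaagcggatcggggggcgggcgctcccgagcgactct
Hsd17b7: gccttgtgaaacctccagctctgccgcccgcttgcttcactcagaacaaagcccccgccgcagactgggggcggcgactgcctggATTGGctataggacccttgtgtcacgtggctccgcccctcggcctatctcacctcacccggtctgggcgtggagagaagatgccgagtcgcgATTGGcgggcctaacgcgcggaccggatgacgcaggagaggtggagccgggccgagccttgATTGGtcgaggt
Idi1: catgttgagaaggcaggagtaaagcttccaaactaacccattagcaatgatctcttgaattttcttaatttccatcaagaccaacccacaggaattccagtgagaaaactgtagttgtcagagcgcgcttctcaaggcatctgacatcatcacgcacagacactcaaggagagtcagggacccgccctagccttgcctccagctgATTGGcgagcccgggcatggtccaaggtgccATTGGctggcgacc
Acss2: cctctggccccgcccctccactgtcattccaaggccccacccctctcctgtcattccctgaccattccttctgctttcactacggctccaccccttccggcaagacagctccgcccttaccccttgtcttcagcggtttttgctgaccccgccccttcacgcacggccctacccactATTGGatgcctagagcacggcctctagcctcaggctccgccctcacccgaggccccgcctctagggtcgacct
Hmgcs1 and Hsd17b7 each held 3 CCAAT matches, Idi1 held 2 and Acss2 held 1. In Hmgcs1 the sterol regulatory element-like match began 137 bases before the start, between CCAAT matches at 176 and 45 bases. CCAAT was not found in the windows of Acaca, Acly and Elovl6.

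Depth and composition differed by group. Gene reads per library numbered 1872558 to 2200815 for GHMT, 14386407 to 18493989 for AGHMT, 5120230 to 15952646 for CM and 15971154 to 33552138 for E, and mitochondrially encoded genes held 27.8% to 72.2%, 36.6% to 42.7%, 40.0% to 59.9% and 3.65% to 7.36% of them. Levels are given as CPM, read counts scaled to library size with edgeR's trimmed mean of M-values factors. A gene with 3 reads stood at 1.56 to 3.93 CPM in a GHMT library and at no more than 0.515 CPM in any library of the other groups. Library GHMT 1 stood apart by its mitochondrial share and a scaling factor of 0.347, and E 1 and CM 3 by their levels of some members, given near the end. Gata4, Mef2c and Tbx5 were higher in every sorted library than in any E library. Hand2 was too in AGHMT and in GHMT 2 and 3, but lay at 1.31 CPM in GHMT 1, against 1.10 to 3.98 CPM in E. Akt1 lay at 7.30 to 19.6 CPM in AGHMT, overlapping GHMT at 1.31 to 13.7 CPM, and at 21.004 to 104 CPM in E. Reads at this gene thus do not show the added Akt of the label. Whether reads from a vector would be counted at it was not tested. AGHMT is used here as the name of the libraries so labelled. Cardiomyocyte markers summed to 8.25 to 17.6 CPM in E, 730 to 1276 CPM in GHMT, 4100 to 4511 CPM in AGHMT and 29446 to 51444 CPM in CM. In bulk RNA, fewer cells of a type and less RNA per cell cannot be told apart.

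The members together were lowest in adult cardiomyocytes. They summed to 273 to 289 CPM in CM, 1724 to 1945 CPM in E, 2012 to 2638 CPM in GHMT and 2433 to 2762 CPM in AGHMT, so CM was below every other group, and both sorted groups lay above E, an order that turned with scaling to total counts (3003 to 3466 CPM in E, 2449 to 2733 CPM in AGHMT, 842 to 2381 CPM in GHMT and 211 to 311 CPM in CM). Levels by library below are on the first scale. The most abundant members weigh most in these sums. Mean levels of Scd1 and Scd2 were 624 and 883 CPM in AGHMT, 720 and 360 CPM in GHMT and 194 and 483 CPM in E. By log2 fold change in edgeR, 20 of the 28 members were below E in GHMT and 19 in AGHMT. The median over all genes tested was -1.06 in GHMT and -0.16 in AGHMT, so most genes lay below E too. The 20 include every member with 0 to 3 reads in all of GHMT. Per kilobase of exon (RPKM, mean ± SD, n = 3), the leading member was Scd2 in E at 88.3 ± 7.88 RPKM and in AGHMT at 162 ± 10.1 RPKM, Scd1 in GHMT at 147 ± 29.0 RPKM and Hmgcs1 in CM at 9.33 ± 1.24 RPKM. Per kilobase of coding sequence, Scd2 led in CM at 33.6, against 27.5 for Hmgcs1, and the leaders of the other groups were the same.

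**Figure D1:**
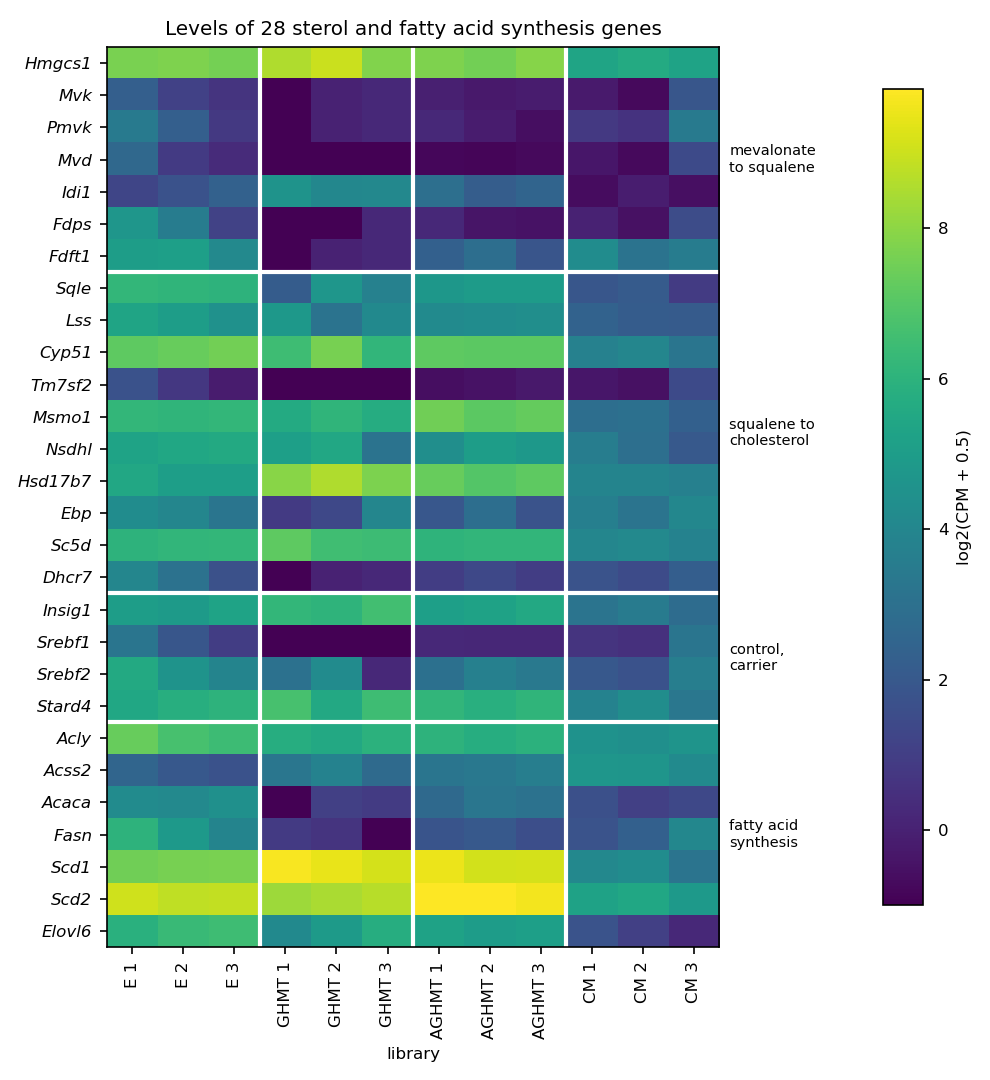
Levels of the 28 members (lines of the map, by role) in the 12 libraries (columns), coloured by log2(CPM + 0.5) from dark (low) to yellow (high). Most members are darkest in the CM columns, Acss2 is brightest there, and Mvd, Tm7sf2 and Srebf1 are at the floor in the GHMT columns.

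In GHMT against E, 6 of 28 members passed as higher and 11 as lower (edgeR's quasi-likelihood test, adjusted p under 0.05), against 19.8% and 32.9% of all genes tested. Either direction together took in 17 members, against 52.6% of all genes. Of the lower members, Fdft1, Fdps, Mvd, Pmvk, Dhcr7, Srebf1 and Fasn had 0 to 3 reads in all of GHMT. They passed the filter through other groups, so their calls add no support beyond those read numbers. The libraries of both groups did not overlap for 7 members that were higher and 14 that were lower, against 15.5% and 43.9% of all genes. The 14 include every member with 0 to 3 reads in all of GHMT, Mvk and Tm7sf2 among them. For these the lack of overlap adds no support either. The median log2 fold change was -1.13 over the members, -1.07 with members that had 0 reads at their bound, and -1.06 over all genes, so the members lay near the background. Hmgcs1, Idi1, Hsd17b7, Insig1, Acss2 and Scd1 were the higher members. Their number was 2 without E 1, 3 without AGHMT 3, and 1 with scaling to total counts, where 22 were lower. With scaling that left out mitochondrially encoded genes the split was 3 and 15, and with DESeq2's size factors 4 and 12. Of all genes called, 37.6% were higher, or 12.04% with total counts, 26.1% with scaling without mitochondrially encoded genes and 60.0% with the GC correction.

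In AGHMT against E, 5 members passed as higher (Msmo1, Hsd17b7, Acss2, Scd1 and Scd2) and 12 as lower, against 21.9% and 24.6% of all genes tested. Either direction together took in 17 members, against 46.5% of all genes. The libraries of both groups did not overlap for 5 members that were higher and 17 that were lower, against 34.8% and 36.9% of all genes. The median was -1.04 over the members and -0.16 over all genes. The lower number was 5, 6 and 4 without AGHMT 1, 2 and 3, 4 without E 1 and 7 without E 2, and the higher number was 3 without AGHMT 1 or E 2. Scaling to total counts gave 2 higher and 16 lower, and scaling without mitochondrially encoded genes gave 5 and 8. Of all genes called, 47.0% were higher, or 23.3% with total counts.

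In CM against E, 19 members passed as lower and 1, Acss2, as higher, against 22.5% and 19.5% of all genes tested. Either direction together took in 20 members, against 42% of all genes. The libraries of both groups did not overlap for 1 member that was higher and 17 that were lower, against 24.6% and 32.6% of all genes. The median was -2.23 over the members and -0.26 over all genes. Of all genes called, 46.4% were higher, or 58.3% with DESeq2's size factors and 22.7% with total counts. The 3 comparisons with E share its libraries, so their values are only set side by side.

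**Figure D2:**
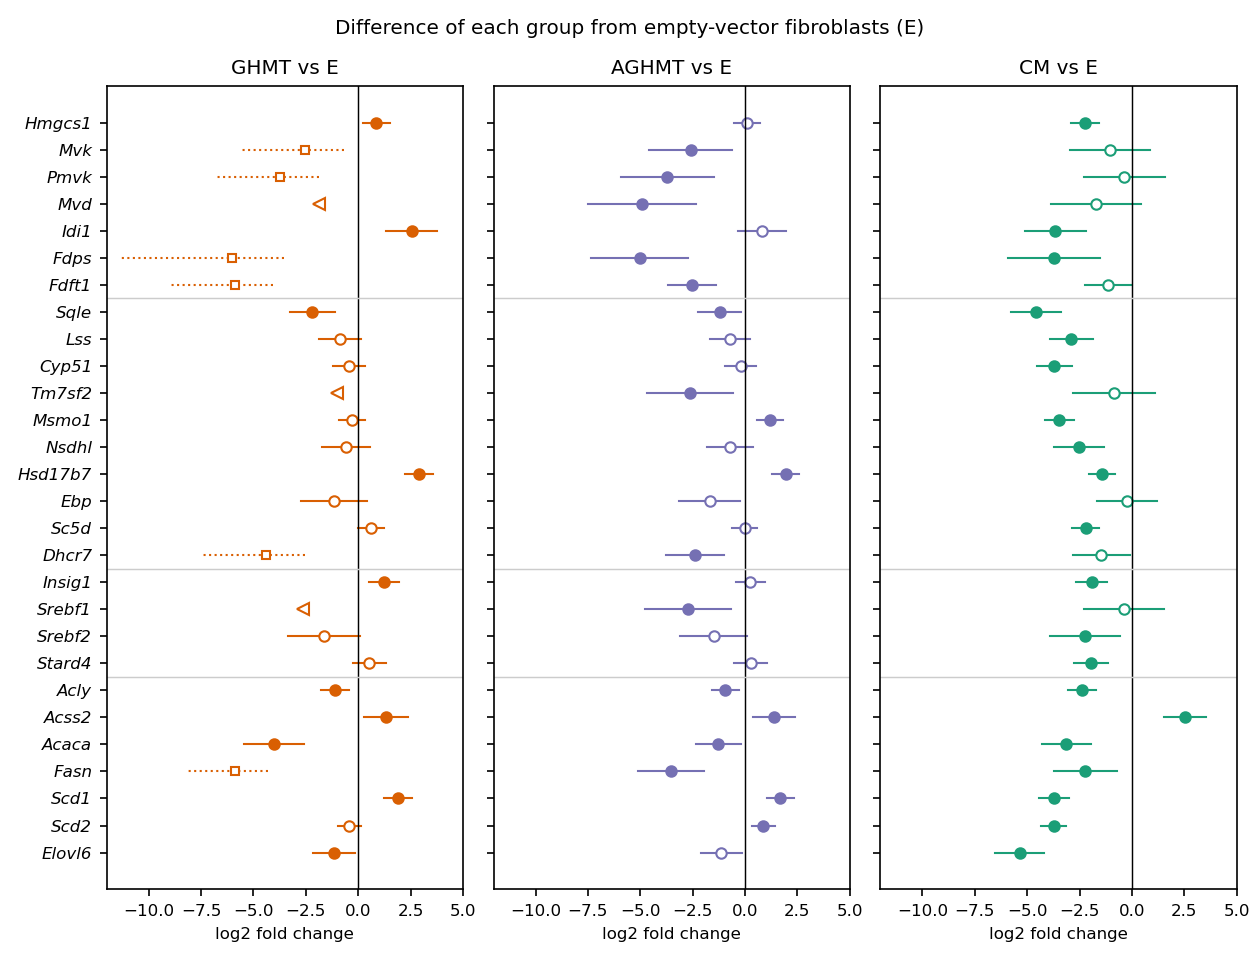
Log2 fold change of each member in GHMT, AGHMT and CM against E, with the 95% interval as a line; filled circles passed the edgeR test and open circles did not. Open squares are ratios of pooled reads with counting intervals (dotted) for members with 1 to 3 GHMT reads. Open triangles are bounds, taken from the mean of E, for members with 0. Acss2 lies right of 0 with a filled circle in all 3 panels (with total counts its GHMT difference was below 0), while Hsd17b7 and Scd1 lie right of 0 in the sorted groups and left of 0 in CM.

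Of the 7 mevalonate genes, 2 rose and 4 fell in GHMT, none rose and 5 fell in AGHMT, and none rose and 3 fell in CM. Over all genes tested, 19.8% rose and 32.9% fell in GHMT, 21.9% and 24.6% in AGHMT, and 19.5% and 22.5% in CM. The same shares stand beside the counts of the other role groups below. Hmgcs1, which makes HMG-CoA, lay at 381, 501 and 223 CPM in GHMT, at 217, 188 and 233 CPM in AGHMT, at 201, 213 and 192 CPM in E and at 39.8, 49.4 and 39.3 CPM in CM. The GHMT libraries were above all E libraries but overlapped AGHMT, and CM was below all others. Differences are given as log2 fold changes ± SE with edgeR's adjusted p, and GHMT exceeded E by 0.87 ± 0.30 (adjusted p = 0.0234), a call lost without any 1 of GHMT 1, GHMT 2, AGHMT 3, E 1, E 2 or E 3 (0.25 to 0.89, adjusted p 0.0504 to 0.577) and turned with total counts to -0.52 (adjusted p = 0.270). AGHMT differed from E by 0.072 ± 0.29 (adjusted p = 0.854), which turned to -0.74 (adjusted p = 0.0488) with the GC correction described near the end, and CM by -2.24 ± 0.31 (adjusted p = 3.43e-05). Hmgcs1 in GHMT against E also lost its call with DESeq2's size factors, scaling without mitochondrially encoded genes, no filter on counts, DESeq2, limma, only the groups compared, the replicate block, the GC correction and GHMT 1, CM 3 and E 1 left out together (0.37 to 0.83, adjusted p 0.0520 to 0.341).

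Idi1, the isomerase that forms the activated isoprene unit, lay at 23.6, 15.6 and 16.5 CPM in GHMT, at 7.38, 4.07 and 5.07 CPM in AGHMT, at 1.91, 2.87 and 4.62 CPM in E and at 0.149, 0.403 and 0.172 CPM in CM. GHMT was above all other libraries and CM below them. GHMT exceeded E by 2.55 ± 0.58 (adjusted p = 0.00223), a call lost without E 1 (1.63, adjusted p 0.0506) and with total counts at 1.06 (adjusted p = 0.124). AGHMT differed from GHMT by -1.74 ± 0.56 (adjusted p = 0.0454), a call lost without any 1 of GHMT 1, AGHMT 1, AGHMT 2, AGHMT 3, CM 1, CM 2, E 1 or E 2 (-2.00 to -0.99, adjusted p 0.0559 to 0.346). CM differed from E by -3.65 ± 0.68 (adjusted p = 0.000492). Idi1 in AGHMT against GHMT also lost its call with total counts, scaling without mitochondrially encoded genes, no filter on counts, only the groups compared and the replicate block (-1.82 to -1.09, adjusted p 0.0810 to 0.189).

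The other 5 mevalonate genes were near the limit of detection in GHMT. In its 3 libraries together, Mvd, the decarboxylase, had 0 reads, Fdps, farnesyl diphosphate synthase, had 1, and the kinases Mvk and Pmvk and the squalene synthase Fdft1 had 2 each. At the level of E, 10.8 reads were expected for Mvd, 52.8 for Fdps, 9.85 for Mvk, 22.2 for Pmvk and 116 for Fdft1. Mvd was at least 3.61-fold lower in GHMT than the mean of E, with 3 reads over the group (0.725 CPM) as its floor. E 3, at 0.764 CPM, lay near that floor. The ratio of E to GHMT in pooled reads, with its 95% interval for counting error only, was 59.9 (16.6 to 495) for Fdft1, 64.4 (11.5 to 2544) for Fdps, 13.5 (3.72 to 111) for Pmvk and 5.91 (1.62 to 49.0) for Mvk. By the edgeR test Fdft1 (adjusted p = 6.45e-05), Fdps (adjusted p = 0.00658), Mvd (adjusted p = 0.0361) and Pmvk (adjusted p = 0.0437) fell and Mvk did not pass (adjusted p = 0.145). All 5 passed the filter through other groups, so these calls add no support beyond the read numbers. The Mvd call was lost without any 1 of GHMT 1, GHMT 2, GHMT 3 or E 1 (adjusted p 0.0652 to 0.113), and the Pmvk call without any 1 of GHMT 1, GHMT 2, GHMT 3, AGHMT 1, AGHMT 2, E 1 or E 2 (-3.89 to -3.07, adjusted p 0.0507 to 0.124). With the GC correction the call was lost for Fdps (adjusted p = 0.0555). Mvd in GHMT against E also lost its call with the GC correction (adjusted p 0.184). Pmvk in GHMT against E also lost its call with the replicate block, the GC correction and GHMT 1, CM 3 and E 1 left out together (-3.41 to -0.86, adjusted p 0.0670 to 0.598).

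These 5 genes were also lower in AGHMT, at more depth. Fdft1 lay at 4.53, 6.99 and 3.11 CPM in AGHMT, at 32.8, 34.5 and 16.7 CPM in E and at 19.0, 8.25 and 11.2 CPM in CM. Fdps lay at 0.692, 0.275 and 0.218 CPM in AGHMT, at 25.2, 11.3 and 1.71 CPM in E and at 0.520, 0.201 and 2.40 CPM in CM. No AGHMT library reached an E library for either gene, while E 1 exceeded E 3 by 14.7-fold for Fdps. AGHMT differed from E by -2.52 ± 0.54 (adjusted p = 0.00198) for Fdft1, a call that held under all 25 alternatives, and -5.03 ± 1.09 (adjusted p = 0.00227) for Fdps, a call that held under the 24 that gave it a value. The exons of Fdft1 overlap Ctsb on the other strand.

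Mvd lay at 0.0769, 0.0551 and 0.109 CPM in AGHMT, at 5.77, 1.32 and 0.764 CPM in E and at 0.297, 0.101 and 2.23 CPM in CM. Pmvk lay at 0.692, 0.385 and 0.164 CPM in AGHMT, at 10.45, 4.36 and 1.25 CPM in E and at 1.26, 1.01 and 10.48 CPM in CM. For both, AGHMT was below all E libraries and CM 3 was the high CM library. AGHMT differed from E by -4.91 ± 1.19 (adjusted p = 0.00571) for Mvd, by -3.71 ± 1.03 (adjusted p = 0.01002) for Pmvk, a call lost without AGHMT 3 or E 1 (-3.09 to -2.70, adjusted p 0.0683 to 0.0719), and by -2.60 ± 0.93 (adjusted p = 0.0339) for Mvk, a call lost without any 1 of AGHMT 1, AGHMT 2, AGHMT 3, E 1 or E 2 (-2.81 to -1.74, adjusted p 0.05001 to 0.194). In CM, Fdps fell, at -3.72 ± 1.03 (adjusted p = 0.00895) though its libraries overlapped E, a call lost without E 1 (-2.74, adjusted p 0.0502), and Mvk, Pmvk, Mvd and Fdft1 overlapped E and did not pass. Between sorted groups Fdft1 was higher in AGHMT by 3.34 ± 0.86 (adjusted p = 0.0180), with a ratio of 10.2 (2.78 to 84.3) in pooled reads, a call lost without AGHMT 2 (2.99, adjusted p 0.0654). Mvk in AGHMT against E also lost its call with scaling without mitochondrially encoded genes, limma and the GC correction (-2.40 to -1.27, adjusted p 0.0506 to 0.121). Fdps in CM against E also lost its call with limma (-3.01, adjusted p 0.0688). Fdft1 in AGHMT against GHMT also lost its call with thinning, the GC correction and GHMT 1, CM 3 and E 1 left out together (2.13 to 3.24, adjusted p 0.0511 to 0.0774).

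Of the 10 genes from squalene to cholesterol, 1 rose and 2 fell in GHMT, 2 rose and 3 fell in AGHMT, and 7 fell in CM. Hsd17b7 (ENSMUSG00000026675, chr1:169949535-169969241, minus strand, mm10), a ketosteroid reductase that acts in trimming the sterol, lay at 244, 379 and 207 CPM in GHMT, at 162, 125 and 142 CPM in AGHMT, at 44.7, 33.6 and 33.6 CPM in E and at 14.3, 14.6 and 12.7 CPM in CM. The groups did not overlap. GHMT exceeded E by 2.89 ± 0.31 (adjusted p = 6.53e-06) and AGHMT by 1.94 ± 0.30 (adjusted p = 0.000178), and both calls held under all 25 alternatives. CM differed from E by -1.43 ± 0.30 (adjusted p = 0.00122). AGHMT differed from GHMT by -0.95 ± 0.29 (adjusted p = 0.0364), a call lost without any 1 of GHMT 2, AGHMT 1, AGHMT 2, AGHMT 3, CM 1, CM 2, E 1 or E 2 (-1.05 to -0.30, adjusted p 0.0520 to 0.611). Hsd17b7 in AGHMT against GHMT also lost its call with total counts, scaling without mitochondrially encoded genes, no filter on counts and the replicate block (-0.93 to -0.35, adjusted p 0.0867 to 0.465).

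Msmo1 (ENSMUSG00000031604, chr8:64718139-64733792, minus strand, mm10), the methylsterol monooxygenase, lay at 182, 138 and 156 CPM in AGHMT, at 49.8, 68.8 and 52.2 CPM in GHMT, at 71.4, 67.6 and 71.9 CPM in E and at 6.99, 7.55 and 4.47 CPM in CM. AGHMT was above every other library, GHMT and E overlapped, and CM was lowest. AGHMT exceeded GHMT by 1.47 ± 0.30 (adjusted p = 0.00544), the 1 call between these groups that held under all 25 alternatives. It exceeded E by 1.17 ± 0.29 (adjusted p = 0.00502), which was 0.33 (adjusted p = 0.506) with total counts. GHMT differed from E by -0.30 ± 0.29 (adjusted p = 0.400), with a 95% interval of -0.92 to 0.33. CM differed from E by -3.46 ± 0.32 (adjusted p = 7.80e-07).

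Sqle, squalene epoxidase, lay at 72.6, 67.7 and 64.1 CPM in E, at 26.1, 30.9 and 30.6 CPM in AGHMT, at 3.93, 25.5 and 13.1 CPM in GHMT and at 3.20, 3.82 and 1.37 CPM in CM. The groups did not overlap, in that order. GHMT 1 held 3 reads, and at 3.93 CPM it lay close to CM 2 at 3.82 CPM. AGHMT against GHMT did not pass (adjusted p = 0.189 by edgeR). The difference from E was -2.19 ± 0.51 (adjusted p = 0.00299) in GHMT, -1.22 ± 0.48 (adjusted p = 0.0473) in AGHMT and -4.57 ± 0.56 (adjusted p = 1.21e-05) in CM. The AGHMT call was lost without any 1 of AGHMT 1, AGHMT 2, AGHMT 3, CM 1, CM 2, E 1, E 2 or E 3 (-1.26 to -1.14, adjusted p 0.0536 to 0.175). Sqle in AGHMT against E also lost its call with scaling without mitochondrially encoded genes and the replicate block (-1.23 to -1.10, adjusted p 0.0687 to 0.0844).

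Cyp51, the lanosterol demethylase, whose exons overlap Akap9 on the other strand, lay at 141, 161 and 184 CPM in E, at 144, 137 and 138 CPM in AGHMT, at 87.8, 197 and 70.1 CPM in GHMT and at 13.2, 15.1 and 8.93 CPM in CM. The first 3 groups overlapped and CM was below them. CM differed from E by -3.70 ± 0.40 (adjusted p = 3.86e-06). The intervals of the other differences from E were -1.21 to 0.32 for GHMT and -0.97 to 0.54 for AGHMT, and neither passed.

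Dhcr7, the reductase of a last step to cholesterol, had 2 reads in all of GHMT, where 36.1 were expected at the level of E, a ratio of 21.1 (5.83 to 175) (adjusted p = 0.00236 by edgeR). It lay at 1.46, 2.04 and 1.47 CPM in AGHMT, at 15.4, 8.05 and 2.75 CPM in E and at 2.97, 2.31 and 4.29 CPM in CM. AGHMT was below all E libraries, at -2.39 ± 0.66 (adjusted p = 0.00930), a call lost without any 1 of AGHMT 1, AGHMT 3 or E 1 (-2.30 to -1.64, adjusted p 0.0509 to 0.0763), and CM overlapped E. Tm7sf2, a sterol reductase whose exons overlap Vps51 on the same strand, had 0 GHMT reads, where 6.15 were expected at the mean level of E. Against that mean it was at least 2.05-fold lower, though it did not pass (adjusted p = 0.0585 by edgeR). It lay at 0.154, 0.220 and 0.327 CPM in AGHMT, at 2.88, 1.18 and 0.397 CPM in E and at 0.297, 0.201 and 2.23 CPM in CM. E 3 was below the GHMT floor of 0.725 CPM, so no fall is shown against that library. AGHMT was below all E libraries, at -2.62 ± 0.95 (adjusted p = 0.0375), a call lost without any 1 of AGHMT 1, AGHMT 2, AGHMT 3, E 1 or E 2 (-2.77 to -1.64, adjusted p 0.0609 to 0.222). Dhcr7 in AGHMT against E also lost its call with limma (-2.34, adjusted p 0.0565). Tm7sf2 in AGHMT against E also lost its call with scaling without mitochondrially encoded genes, limma, the replicate block and the GC correction (-2.74 to -2.12, adjusted p 0.0532 to 0.0736).

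Ebp, the sterol isomerase, was the member of this group with the highest RPKM in CM (5.27 ± 1.53 RPKM). It lay at 12.3, 8.55 and 15.6 CPM in CM, at 18.7, 15.1 and 8.84 CPM in E, at 1.31, 2.08 and 15.1 CPM in GHMT and at 3.38, 7.05 and 2.89 CPM in AGHMT. CM overlapped E, as did GHMT through GHMT 3, and none of the 3 differences from E passed. Lss, Nsdhl and Sc5d did not pass in either sorted group against E, and all 3 fell in CM, at -2.89 ± 0.48, -2.52 ± 0.55 and -2.21 ± 0.30. With total counts Sc5d turned in GHMT against E, from 0.60 to -0.92.

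Of the 4 genes of control and carriage, 1 rose and 1 fell in GHMT, 1 fell in AGHMT and 3 fell in CM. Insig1, which retains SREBP and is itself a target of it, lay at 72.1, 66.7 and 94.2 CPM in GHMT, at 34.8, 37.7 and 46.8 CPM in AGHMT, at 32.0, 29.8 and 38.3 CPM in E and at 8.55, 11.0 and 6.70 CPM in CM. GHMT was above all other libraries, AGHMT and E overlapped, and CM was lowest. GHMT exceeded E by 1.22 ± 0.33 (adjusted p = 0.00723), a call lost without AGHMT 3 or E 1 (0.55 to 0.65, adjusted p 0.171 to 0.267) and turned with total counts to -0.18 (adjusted p = 0.726). CM differed from E by -1.93 ± 0.34 (adjusted p = 0.000311). Insig1 in GHMT against E also lost its call with scaling without mitochondrially encoded genes and no filter on counts (0.70 to 1.10, adjusted p 0.0645 to 0.101).

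Srebf1, whose exons overlap Rai1 on the other strand, had 0 GHMT reads, where 18.5 were expected at the mean level of E. Against that mean it was at least 6.16-fold lower (adjusted p = 0.0146 by edgeR, a call lost without GHMT 2 (adjusted p 0.0567)). It lay at 0.692, 0.661 and 0.654 CPM in AGHMT, at 8.68, 3.28 and 1.44 CPM in E and at 1.04, 0.906 and 8.76 CPM in CM. AGHMT was below all E libraries, at -2.73 ± 0.95 (adjusted p = 0.0328), a call lost without any 1 of AGHMT 1, AGHMT 2, AGHMT 3, E 1 or E 2 (-2.92 to -1.76, adjusted p 0.0510 to 0.195), and CM overlapped E through CM 3. Srebf1 in GHMT against E also lost its call with the GC correction (adjusted p 0.0744). Srebf1 in AGHMT against E also lost its call with limma, the replicate block and the GC correction (-2.74 to -1.05, adjusted p 0.0557 to 0.134).

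Srebf2 lay at 47.7, 23.4 and 14.5 CPM in E, at 7.87, 18.2 and 0.687 CPM in GHMT, at 7.61, 12.6 and 10.03 CPM in AGHMT and at 3.49, 2.82 and 12.02 CPM in CM. GHMT 2 overlapped E, and AGHMT and CM were below all E libraries. CM alone passed, at -2.25 ± 0.78 (adjusted p = 0.0307), a call lost without any 1 of AGHMT 3, CM 1, CM 2 or E 1 (-2.17 to -1.70, adjusted p 0.0579 to 0.141). Stard4, a cytosolic sterol carrier, lay at 104, 45.9 and 88.7 CPM in GHMT, at 70.2, 57.0 and 68.0 CPM in AGHMT, at 43.3, 55.7 and 64.0 CPM in E and at 13.7, 19.4 and 9.28 CPM in CM. The first 3 groups overlapped and CM was lower than E, at -1.93 ± 0.38 (adjusted p = 0.000767). Its difference of 0.54 between GHMT and E, which did not pass, was below 0 with total counts. Srebf2 in CM against E also lost its call with DESeq2's size factors, DESeq2, limma, the replicate block and thinning (-2.16 to -1.71, adjusted p 0.0810 to 0.191).

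Of the 7 fatty acid genes, 2 rose and 4 fell in GHMT, 3 rose and 3 fell in AGHMT, and 1 rose and 6 fell in CM. Scd1 (ENSMUSG00000037071, chr19:44394455-44407879, minus strand, mm10), a stearoyl-CoA desaturase, lay at 860, 723 and 577 CPM in GHMT, at 748, 553 and 572 CPM in AGHMT, at 181, 198 and 203 CPM in E and at 16.3, 19.0 and 8.59 CPM in CM. The sorted groups overlapped each other and were above E, which was above CM. GHMT exceeded E by 1.89 ± 0.31 (adjusted p = 0.000231), or 0.42 (adjusted p = 0.265) with total counts, and AGHMT by 1.69 ± 0.31 (adjusted p = 0.000657), a call that held under all 25 alternatives. AGHMT and GHMT differed by -0.20, with a 95% interval of -0.84 to 0.43. CM differed from E by -3.72 ± 0.33 (adjusted p = 6.34e-07).

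Scd2 (ENSMUSG00000025203, chr19:44293674-44306864, plus strand, mm10), a second desaturase, lay at 926, 902 and 821 CPM in AGHMT, at 532, 452 and 464 CPM in E, at 308, 357 and 414 CPM in GHMT and at 37.2, 43.2 and 27.8 CPM in CM. The groups did not overlap, in that order. AGHMT exceeded GHMT by 1.29 ± 0.26 (adjusted p = 0.00478), which was 0.036 (adjusted p = 0.919) with the GC correction. It exceeded E by 0.87 ± 0.25 (adjusted p = 0.0121), a call lost without AGHMT 1 or E 2 (0.81 to 0.84, adjusted p 0.0511 to 0.0586) and with total counts at 0.038 (adjusted p = 0.940). GHMT differed from E by -0.42 ± 0.25 (adjusted p = 0.165), which turned to 0.92 (adjusted p = 0.00479) with the GC correction, and CM differed from E by -3.74 ± 0.28 (adjusted p = 9.62e-08). Scd1 and Scd2 are similar in sequence, and how reads that match both were counted is not stated. Scd2 in AGHMT against E also lost its call with no filter on counts (0.79, adjusted p 0.0744).

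Fasn, fatty acid synthase, had 3 reads in all of GHMT, where 148 were expected at the level of E, a ratio of 58.3 (19.9 to 283) (adjusted p = 0.000518 by edgeR). It lay at 3.07, 3.63 and 2.56 CPM in AGHMT, at 64.3, 28.2 and 14.6 CPM in E and at 2.97, 4.53 and 15.8 CPM in CM. AGHMT was below all E libraries, at -3.53 ± 0.74 (adjusted p = 0.00183). CM overlapped E through CM 3 and was lower, at -2.22 ± 0.70 (adjusted p = 0.0188), a call lost without any 1 of CM 1, CM 2 or E 1 (-1.94 to -1.51, adjusted p 0.0732 to 0.132). Fasn in CM against E also lost its call with DESeq2's size factors, DESeq2, limma, only the groups compared, the replicate block and thinning (-2.15 to -1.40, adjusted p 0.0636 to 0.195).

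Acaca, acetyl-CoA carboxylase, lay at 18.3, 16.6 and 21.03 CPM in E, at 5.99, 9.03 and 8.02 CPM in AGHMT, at 2.68, 1.61 and 2.06 CPM in CM and at 0, 1.56 and 1.37 CPM in GHMT. The groups did not overlap, in that order. The GHMT libraries held 0, 3 and 2 reads, near the floor, and GHMT against CM did not pass (adjusted p = 0.297 by edgeR). GHMT differed from E by -4.01 ± 0.67 (adjusted p = 0.000287), CM by -3.13 ± 0.55 (adjusted p = 0.000288) and AGHMT by -1.28 ± 0.50 (adjusted p = 0.0475), and the AGHMT call was lost without any 1 of AGHMT 1, AGHMT 2, AGHMT 3, CM 1, CM 2, E 1, E 2 or E 3 (-1.40 to -1.12, adjusted p 0.0586 to 0.182). AGHMT exceeded GHMT by 2.73 ± 0.68 (adjusted p = 0.0149), a call lost without AGHMT 2 (2.61, adjusted p 0.0578). Acaca in AGHMT against E also lost its call with scaling without mitochondrially encoded genes, no filter on counts, limma, the replicate block and thinning (-1.61 to -1.18, adjusted p 0.0709 to 0.167). Acaca in AGHMT against GHMT also lost its call with only the groups compared (2.68, adjusted p 0.0664).

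Acly, the citrate lyase that supplies acetyl-CoA, fell, at -1.11 ± 0.31 (adjusted p = 0.00886) in GHMT, -0.94 ± 0.30 (adjusted p = 0.0204) in AGHMT and -2.38 ± 0.32 (adjusted p = 2.83e-05) in CM. With the GC correction the GHMT difference turned to 0.87 (adjusted p = 0.0385) and that of AGHMT from GHMT to -1.27 (adjusted p = 0.0101), and the AGHMT call against E was lost without any 1 of AGHMT 1, AGHMT 2, AGHMT 3 or E 1 (-0.98 to -0.61, adjusted p 0.0645 to 0.175). Acss2, which makes acetyl-CoA from acetate, lay at 25.7, 24.9 and 17.7 CPM in CM, at 8.76, 9.63 and 12.1 CPM in AGHMT, at 9.18, 13.5 and 6.19 CPM in GHMT and at 5.32, 3.52 and 2.87 CPM in E. CM was above all other libraries and E below them. CM exceeded E by 2.54 ± 0.48 (adjusted p = 0.000549), a call that held under all 25 alternatives. GHMT exceeded E by 1.32 ± 0.49 (adjusted p = 0.0358), a call lost without any 1 of GHMT 2, AGHMT 1, AGHMT 2, AGHMT 3, CM 1, CM 2, E 1, E 2 or E 3 (0.82 to 1.32, adjusted p 0.0553 to 0.201) and turned with total counts to -0.056 (adjusted p = 0.943). AGHMT exceeded E by 1.38 ± 0.46 (adjusted p = 0.0244), a call lost without any 1 of AGHMT 1, AGHMT 2, AGHMT 3, E 2 or E 3 (1.201 to 1.48, adjusted p 0.0558 to 0.0960). The exons of Acss2 overlap Acss2os, Ggt7 and Gss on the other strand, and no source names the strand setting used for counting. Acly in AGHMT against E also lost its call with no filter on counts and the GC correction (-1.03 to -0.39, adjusted p 0.0534 to 0.304). Acss2 in GHMT against E also lost its call with DESeq2's size factors, scaling without mitochondrially encoded genes, no filter on counts, only the groups compared and the replicate block (0.87 to 1.31, adjusted p 0.0604 to 0.241). Acss2 in AGHMT against E also lost its call with DESeq2's size factors, total counts, no filter on counts, limma and the replicate block (0.55 to 1.44, adjusted p 0.0557 to 0.440).

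Elovl6, which elongates palmitate, lay at 58.1, 81.3 and 88.2 CPM in E, at 37.2, 31.8 and 34.7 CPM in AGHMT, at 17.0, 29.7 and 53.6 CPM in GHMT and at 2.97, 1.61 and 0.687 CPM in CM. E was above all other libraries, the sorted groups overlapped, and CM was lowest, with the largest fall of any member in CM at -5.36 ± 0.55 (adjusted p = 2.58e-06). GHMT differed from E by -1.16 ± 0.47 (adjusted p = 0.0481), a call lost without any 1 of GHMT 1, GHMT 2, AGHMT 1, AGHMT 2, CM 2, E 2 or E 3 (-1.17 to -0.88, adjusted p 0.0591 to 0.125). AGHMT did not pass, at -1.13 ± 0.45 (adjusted p = 0.0516). Elovl6 in GHMT against E also lost its call with only the groups compared, the replicate block and the recovered reads (-1.23 to -1.14, adjusted p 0.0513 to 0.0754).

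**Figure D3:**
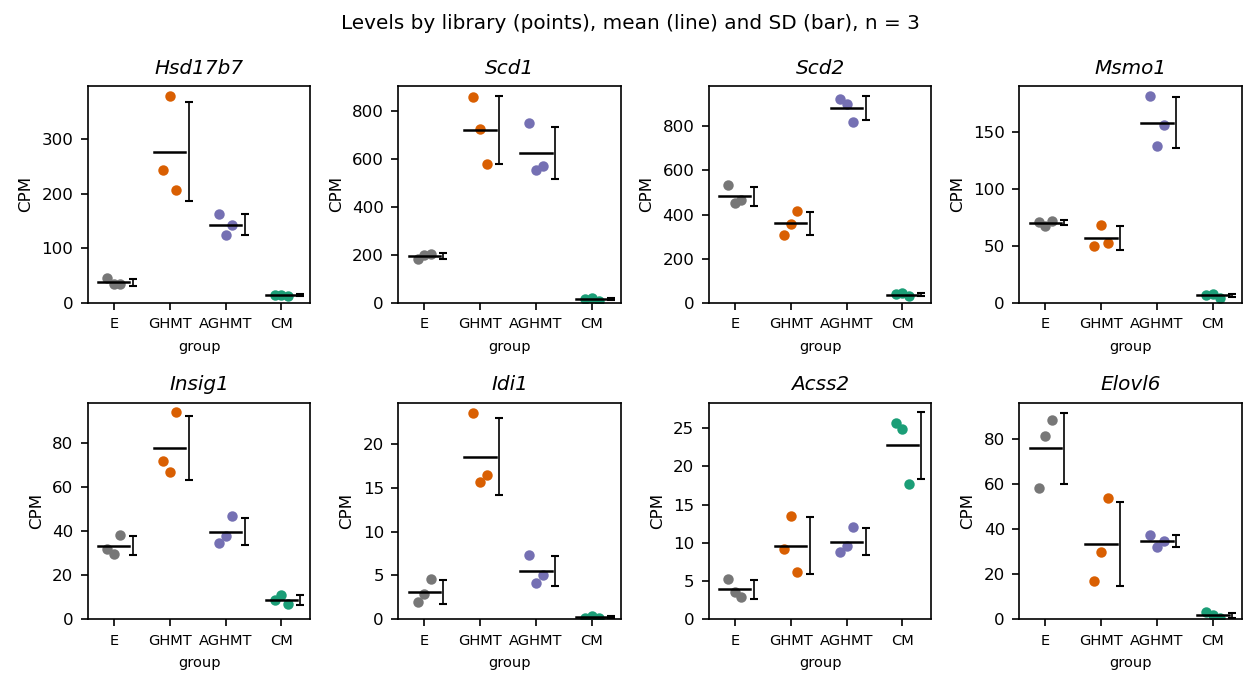
Level in CPM (linear axis from 0) of 8 members by group, with a point per library, a line for the mean and a bar for the SD (n = 3). Hsd17b7 and Scd1 are above E in both sorted groups, Scd2 and Msmo1 are highest in AGHMT, Insig1 and Idi1 in GHMT, Acss2 in CM and Elovl6 in E.

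Directly between the sorted groups, 4 members passed as higher in AGHMT (Fdft1, Msmo1, Acaca and Scd2) and 2 as lower (Idi1 and Hsd17b7), against 13.2% and 4.58% of all genes tested. Either direction together took in 6 members, against 17.8% of all genes. Fdft1 had 2 reads in all of GHMT and passed the filter through other groups. The libraries of both groups did not overlap for 10 members that were higher and 4 that were lower, against 37.4% and 8.47% of all genes. The 10 include Fdft1, Mvd, Tm7sf2, Dhcr7, Srebf1 and Fasn, with 0 to 3 reads in all of GHMT. At the level of AGHMT, only 0.332, 0.967 and 2.77 GHMT reads were expected for Mvd, Tm7sf2 and Srebf1. For these members the lack of overlap adds no support beyond the read numbers. The median was 0.14 over the members and 0.63 over all genes. The lower number was 1 without GHMT 1 or 2 and 0 without AGHMT 1, 2 or 3, CM 1 or 2 or E 1 or 2, and the higher number was 2 without AGHMT 2. The GC correction gave 2 higher and 7 lower, DESeq2's size factors 4 higher and 4 lower, total counts 4 higher and 0 lower, and scaling without mitochondrially encoded genes 5 higher and 0 lower. Of all genes called, 74.3% were higher, or 63.7% with DESeq2's size factors, 95.4% with total counts, 94.8% with scaling without mitochondrially encoded genes, 55.7% with thinning and 27.02% with the GC correction.

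Against adult cardiomyocytes, 15 members passed as higher in GHMT and 5 as lower (Fdft1, Dhcr7, Srebf1, Acss2 and Fasn), against 23.8% and 34.7% of all genes tested. Either direction together took in 20 members, against 58.6% of all genes. Of the lower members, Fdft1, Dhcr7, Srebf1 and Fasn had 0 to 3 reads in all of GHMT and passed the filter through other groups. The libraries of both groups did not overlap for 14 members that were higher and 9 that were lower, against 18.4% and 40.2% of all genes. The 9 include Fdft1, Dhcr7, Srebf1, Fasn, Pmvk, Mvd and Tm7sf2, all with 0 to 3 reads in all of GHMT. For these the lack of overlap adds no support beyond the read numbers. The median was 1.61 over the members and -0.89 over all genes. The lower number was 3 without any 1 GHMT library and 2 without CM 3. The call was lost for Dhcr7 without any 1 of GHMT 1, GHMT 2 or CM 3 (-2.81 to -2.41, adjusted p 0.0602 to 0.0762), for Srebf1 without any 1 of GHMT 2, GHMT 3 or CM 3 (adjusted p 0.0524 to 0.0725), for Acss2 without any 1 of GHMT 1, GHMT 3, AGHMT 1, AGHMT 2, CM 1, CM 2 or E 2 (-1.21 to -1.001, adjusted p 0.0509 to 0.110) and for Fasn without GHMT 3 or CM 3 (-2.77 to -2.36, adjusted p 0.0520 to 0.0603). Among the higher members, it was lost for Nsdhl without GHMT 2 (1.42, adjusted p 0.0646) and for Acly without AGHMT 3 (0.76, adjusted p 0.0705). Of all genes called, 40.7% were higher, or 30.5% with DESeq2's size factors and 58.2% with the GC correction. The largest rise was that of Idi1 at 6.20 ± 0.73 (adjusted p = 8.10e-06). Dhcr7 in GHMT against CM also lost its call with the replicate block, the GC correction and GHMT 1, CM 3 and E 1 left out together (-2.72 to -0.86, adjusted p 0.0530 to 0.469). Srebf1 in GHMT against CM also lost its call with the GC correction (adjusted p 0.137). Acss2 in GHMT against CM also lost its call with no filter on counts, the replicate block and the GC correction (-1.24 to -0.54, adjusted p 0.0875 to 0.304). Fasn in GHMT against CM also lost its call with the GC correction (-0.62, adjusted p 0.572). Nsdhl in GHMT against CM also lost its call with limma, only the groups compared and GHMT 1, CM 3 and E 1 left out together (1.197 to 1.52, adjusted p 0.0543 to 0.131). Acly in GHMT against CM also lost its call with DESeq2's size factors, total counts, DESeq2, limma and only the groups compared (0.66 to 0.83, adjusted p 0.0713 to 0.189). With only the groups compared, the call was lost too for Sqle (1.98, adjusted p 0.0768) and Lss (1.54, adjusted p 0.105) in GHMT against CM.

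In AGHMT against CM, 16 members passed as higher and 3 as lower (Pmvk, Fdft1 and Acss2), against 23.7% and 24.4% of all genes tested. Either direction together took in 19 members, against 48.1% of all genes. The libraries of both groups did not overlap for 16 members that were higher and 6 that were lower, against 36.7% and 33.9% of all genes. The median was 1.83 over the members and -0.053 over all genes. The lower number was 1 without AGHMT 1 or 2 or E 2 and 0 without AGHMT 3 or CM 3. The call was lost for Pmvk without any 1 of AGHMT 2, AGHMT 3 or CM 3 (-3.26 to -1.49, adjusted p 0.0572 to 0.190), for Fdft1 without any 1 of AGHMT 1, AGHMT 3, CM 1, CM 3, E 1 or E 2 (-1.48 to -0.98, adjusted p 0.0523 to 0.215) and for Acss2 without any 1 of AGHMT 1, AGHMT 2, AGHMT 3, CM 1, CM 2, CM 3, E 1, E 2 or E 3 (-1.32 to -1.004, adjusted p 0.0505 to 0.169), and among the higher members for Nsdhl without CM 3 (1.48, adjusted p 0.0541). With DESeq2's size factors the split was 13 higher and 7 lower. Of all genes called, 49.4% were higher, or 28.7% with DESeq2's size factors. The largest rise was that of Scd1 at 5.40 ± 0.36 (adjusted p = 1.03e-07). Pmvk in AGHMT against CM also lost its call with limma, the replicate block, the GC correction and GHMT 1, CM 3 and E 1 left out together (-3.17 to -1.52, adjusted p 0.0521 to 0.102). Fdft1 in AGHMT against CM also lost its call with total counts, scaling without mitochondrially encoded genes, no filter on counts, the replicate block, thinning and the GC correction (-1.61 to -0.97, adjusted p 0.0532 to 0.116). Acss2 in AGHMT against CM also lost its call with total counts, scaling without mitochondrially encoded genes, no filter on counts, the replicate block and thinning (-1.21 to -0.96, adjusted p 0.0667 to 0.180). Nsdhl in AGHMT against CM also lost its call with DESeq2's size factors, DESeq2, limma and the GC correction (1.13 to 1.202, adjusted p 0.0568 to 0.121). Acaca in AGHMT against CM lost its call with DESeq2's size factors, limma and thinning (1.10 to 1.84, adjusted p 0.0726 to 0.332). Acly in AGHMT against CM lost its call with DESeq2's size factors, DESeq2 and limma (0.67 to 0.70, adjusted p 0.0661 to 0.0917).

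A list of 50 other genes of these pathways held 12 that rose and 16 that fell in CM against E. These are 24% and 32%, against 19.5% and 22.5% of all genes tested. The median was 0.0147, against -0.26 over all genes. The largest changes there were those of Mlxipl and Thrsp, regulators of lipid synthesis, and Acacb, the mitochondrial acetyl-CoA carboxylase. Acacb rose by 7.55 ± 1.08 (adjusted p = 5.40e-05), and Mlxipl and Thrsp, with 3 and 2 reads in all of E, had pooled ratios of 545 (185 to 2652) and 328 (89.3 to 2732). In GHMT against E 11 rose and 18 fell (22% and 36%, against 19.8% and 32.9% of all genes). Coq2, of ubiquinone synthesis, and Dgat1 and Agpat2, of triglyceride synthesis, had 0 GHMT reads. They were at least 11.0-fold, 10.6-fold and 3.72-fold lower than the mean of E. Other listed genes also had 0 to 3 reads in all of GHMT, among them Slc25a1, Ube2g2, Fads2, Scap, Stard3, Nr1h2 and Dgat2. Such genes passed the filter through other groups, so any calls for them in comparisons with GHMT add no support beyond the read numbers. In AGHMT against E 14 rose and 16 fell (28% and 32%, against 21.9% and 24.6% of all genes). Fads2, a desaturase of polyunsaturated fatty acids, fell, at -5.03 ± 0.87 (adjusted p = 0.000478) while Thrsp had a pooled ratio of 57.9 (15.2 to 492). In AGHMT against GHMT 6 rose and 3 fell (12% and 6%, against 13.2% and 4.58% of all genes).

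Markers of other cells moved between the groups. Markers of dividing cells summed to 591 to 1015 CPM in E, 50.9 to 95.7 CPM in GHMT, 90.9 to 102 CPM in AGHMT and 21.1 to 31.7 CPM in CM, and those of fibroblasts to 11011 to 12382 CPM, 3859 to 5877 CPM, 7337 to 8325 CPM and 893 to 1071 CPM. Of 9 fat cell markers 3 passed the filter, and Adipoq, Plin1, Cidec, Cfd and Lep had 0 to 2 reads in every library. The 9 summed to 11.98 to 18.3 CPM in E, 3.93 to 9.62 CPM in GHMT, 47.6 to 59.0 CPM in AGHMT and 524 to 1148 CPM in CM, where Fabp4 alone held 513 to 1131 CPM. Endothelial markers summed to 416 to 614 CPM in CM and 2.62 to 60.6 CPM elsewhere, macrophage markers to 84.1 to 178 CPM and 1.31 to 46.2 CPM, and mast cell markers to 310 to 340 CPM in AGHMT, 65.5 to 162 CPM in GHMT and 0.217 to 10.3 CPM in the others. Of 5 mast cell markers 2 passed the filter. Both were higher in AGHMT than in E, but against CM they went opposite ways. Their log2 fold changes from CM were 8.71 and -2.40 in AGHMT and 7.17 and -9.87 in GHMT, so the sums do not stand for the whole list. The part of these other cells in the members' differences was not tested.

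The GC content of a member's longest transcript moved with its change. Over the 28 members, Spearman's rho between GC content and log2 fold change was -0.80 in GHMT against E, -0.78 in AGHMT against E and 0.39 in CM against E, and over 14982 genes it was -0.44, -0.49 and 0.10. These are descriptions across genes, which share the libraries and are not independent replicates. Of 8 members in the most GC-rich of 3 equal bins of genes (Mvk, Pmvk, Mvd, Dhcr7, Srebf1, Srebf2, Acly and Fasn), 6 fell and none rose in GHMT, where 48.5% and 6.23% of that bin's genes did. Of the 6, Pmvk, Mvd, Dhcr7, Srebf1 and Fasn had 0 to 3 reads in all of GHMT. They passed the filter through other groups, so their calls add no support beyond those read numbers. Libraries of 1 group also differed. The ratio of E 1 to E 3 was 1.89 to 8.34 over these 8 members (lowest for Acly, highest for Pmvk), 0.768 to 14.7 over the 12 in the middle bin (highest for Fdps) and 0.413 to 1.33 over the 8 in the bin of lowest GC content. The ratio of CM 3 to the mean of CM 1 and CM 2 was 1.12 to 13.8 (lowest for Acly, highest for Mvk), 0.392 to 8.96 (highest for Tm7sf2) and 0.300 to 0.882. With a correction for GC content in each library, 7 members were higher and 6 lower in GHMT against E, 5 and 11 in AGHMT against E, and 1 and 22 in CM against E. Of all genes called with it, 60.0%, 43.5% and 48.4% were higher, and the members' median in GHMT against E was 0.095, against -0.14 over all genes. With the correction, Spearman's rho was -0.50 over the members and -0.13 over all genes in GHMT against E. It was -0.48 and -0.11 in AGHMT against E, and 0.28 and 0.025 in CM against E, so a relation with GC content remained. Hsd17b7 then exceeded E by 2.80 (adjusted p = 6.78e-06) in GHMT and 1.21 (adjusted p = 0.00323) in AGHMT, Scd1 by 2.75 (adjusted p = 2.25e-05) and 1.44 (adjusted p = 0.00247), and Fasn differed by -3.00 (adjusted p = 0.00585) and -1.97 (adjusted p = 0.00302) (edgeR).

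**Figure D4:**
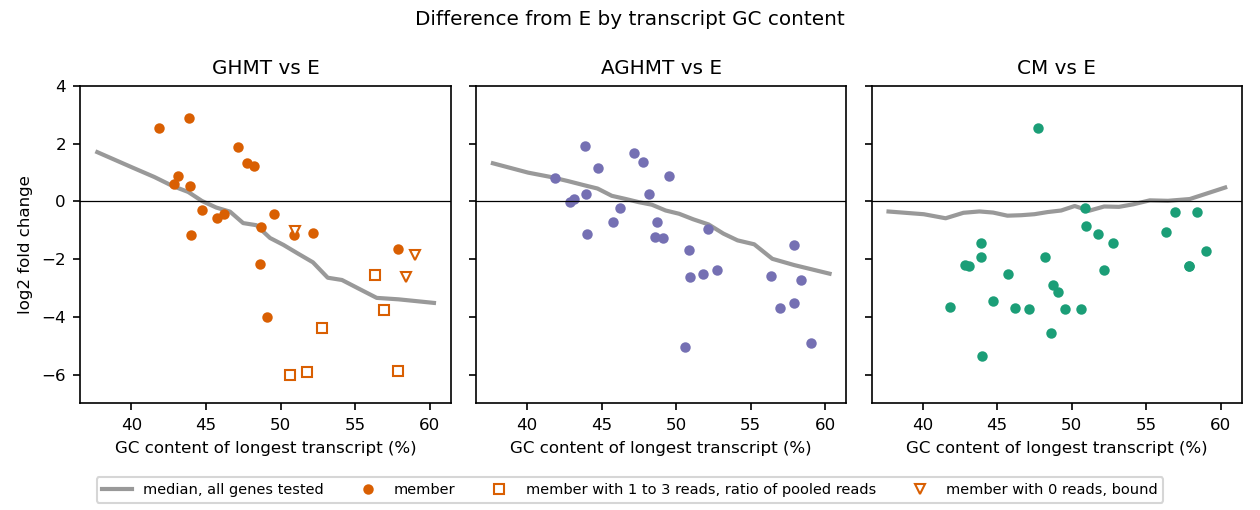
Log2 fold change against E of each member by the GC content of its longest transcript in percent, for GHMT, AGHMT and CM; the grey line is the median of all genes tested, open squares are ratios for members with 1 to 3 GHMT reads and open triangles are bounds for members with 0. In GHMT and AGHMT members and grey line fall together as GC content rises, and in CM 27 of 28 members lie below 0, with Acss2 above.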

How the data were processed

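RNA was extracted with TRIzol and made into stranded TruSeq libraries, per the labels' protocols. The submitters' processing notes name Bowtie2 2.0.6, HTSeq, DESeq and mm10, with no strand setting. The authors deposited read counts per gene for each library, and a normalized signal, which is those counts divided by a size factor. Reads recovered from that deposited signal were whole for 100% of values (tolerance 0.001), and edgeR on them called 7476 genes in GHMT against E, against 7927 on the counts.

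Reads in no gene (8.45% to 20.2% of uniquely aligned reads per library) and ambiguous reads (1.12% to 3.89%) were left out. Genes passed filterByExpr (minimum count 10, minimum total 15). All 12 libraries entered 1 robust quasi-likelihood fit in edgeR 4.0.16 (R 4.3.3), with no replicate block. Adjusted p-values are Benjamini-Hochberg over 15059 genes, with a threshold of 0.05. Values after ± are SE for differences, taken from the fold change and F. Intervals are 95%. Exon lengths, GC content and positions are from GENCODE M21. Alternatives used DESeq2 1.42.0, and limma 3.58.1 on log2 of the deposited signal plus 1, among others. The tests were checked on simulated data.

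Members and lists were chosen with earlier results of these data known. Values per library are given for the 3 largest passing changes of each role group in a comparison with E or between the sorted groups, and for the member of each role group with the highest RPKM. Up to 3 of the largest passing changes of other pathway genes were eligible to be named per comparison, and some are not reported here.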

Additional observations from a re-analysis of the deposited data

How the results depend on the processing

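The results were recomputed under 25 alternatives, of which the GC correction, leaving out GHMT 1, CM 3 and E 1 together, and the recovered reads were chosen after seeing the data. The GC correction planned on merged exons was not run, and the longest transcript was used in its place. Over single members and alternatives, 3719 values kept their side of the threshold, 270 calls were lost, 134 were gained and 9 changed sign with a call on either side. In all 137 values changed sign, and the other 128 passed neither as reported nor under the alternative. The 9 were, with total counts in GHMT against E, Hmgcs1 (-0.52), Sc5d (-0.92), Insig1 (-0.18), Stard4 (-0.9998) and Acss2 (-0.056), and with the GC correction Acly (0.87) and Scd2 (0.92) in GHMT against E, Hmgcs1 (-0.74) in AGHMT against E and Acly (-1.27) in AGHMT against GHMT. The cause was not tested. The median over all genes in GHMT against E was -1.06 as reported, -1.27 with DESeq2's size factors, -2.38 with total counts and -1.51 with scaling without mitochondrially encoded genes, where that of the members was -1.13, -1.35, -2.48 and -1.59. With thinning these were -0.26 and -0.54, and with the GC correction -0.14 and 0.095, so the members' median turned.

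Numbers of members called changed by over 1.5 times as follows. In GHMT against E (6 higher, 11 lower), total counts gave 1 and 22, scaling without mitochondrially encoded genes 3 higher, no filter 3 higher, thinning to 1 depth 6 lower and the GC correction 6 lower. In AGHMT against E (5 higher, 12 lower), total counts gave 2 higher, no filter 3 higher and thinning 4 lower. In AGHMT against GHMT (4 higher, 2 lower), DESeq2's size factors gave 4 lower, DESeq2 5, limma 4, fitting only the groups compared 1, and total counts, scaling without mitochondrially encoded genes and no filter 0 each, while the GC correction gave 2 higher and 7 lower. In GHMT against CM (5 lower), limma gave 10 lower, only the groups compared 2, thinning 3 and the GC correction 1. In AGHMT against CM (3 lower), DESeq2's size factors gave 7 lower, DESeq2 8, total counts, scaling without mitochondrially encoded genes and the GC correction 1 each, and thinning 0.

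All genes called after thinning each library to 612458 reads outside mitochondrially encoded genes numbered 5138 in GHMT against E, 3448 in AGHMT against E, 3452 in CM against E, 1647 in AGHMT against GHMT, 5515 in GHMT against CM and 3817 in AGHMT against CM, against 7927, 6998, 6319, 2682, 8821 and 7244. AGHMT against GHMT also gave 4206 with scaling without mitochondrially encoded genes, 4780 with limma, 1740 with only the groups compared and 4179 with the GC correction, and GHMT against CM gave 4980 with only the groups compared.

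Without GHMT 1, CM 3 and E 1 together, members called higher and lower numbered 5 and 10 in GHMT against E, 5 and 13 in AGHMT against E, 1 and 21 in CM against E, 3 and 3 in AGHMT against GHMT, 14 and 4 in GHMT against CM and 16 and 2 in AGHMT against CM.

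Correlations of 18 same-number pairs of libraries ran from -0.72 to 0.13. Those with GHMT lay at -0.073 to 0.065, and a pair of different numbers, CM 3 with E 1, reached 0.79. These values cannot decide whether replicate numbers pair the libraries. With the replicate number as a block, AGHMT against GHMT gave 0 members lower and 1355 genes called, GHMT against CM 3 members lower and AGHMT against CM 0 lower.

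Leaving out each library in turn gave 2 to 6 members higher in GHMT against E. It gave 3 to 5 higher, 4 to 15 lower and 4238 to 8278 genes called in AGHMT against E. It gave 2 to 5 higher, 0 to 3 lower and 1037 to 4073 genes in AGHMT against GHMT, 2 to 6 lower in GHMT against CM and 0 to 4 lower in AGHMT against CM. Where GHMT has 0 to 3 reads of a member, depth limits its fold to a bound or a wide interval.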
